A study of Cavia porcellus with 12 samples.

Results

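The interferon response genes examined here are 9 named genes, namely the transcription factors STAT2, IRF1, IRF7 and IRF9, the induced effectors ISG15, MX1, IFIT2 and IFIT3, and the RNA sensor IFIH1. They were taken by symbol from the deposited table of log2 expression, which lists 11896 human orthologue symbols, and 8 of the 9 were rows of it. IFIT2 was not a row of that table and is not described further. Liver RNA was sequenced from 12 female Dunkin Hartley guinea pigs that entered the study at 10 weeks of age. The 6 controls had chow for 25 weeks and were drawn at random from animals without NASH and fibrosis. The 6 NASH animals (nonalcoholic steatohepatitis) had a high-fat diet for 25 weeks and were picked for bridging fibrosis, so the group stands for advanced disease and not for all animals on that diet. The animals are called here by their label numbers, which are 5, 10, 31, 32, 45 and 56 for controls and 2, 9, 11, 20, 41 and 65 for NASH. The livers were not perfused, and blood was part of the tissue sampled.

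Type I and type III interferons bind receptors at the cell surface, and the kinases JAK1 and TYK2 then phosphorylate STAT2 among other factors. Together with IRF9, STAT2 acts in the complex ISGF3, which switches on the interferon-stimulated genes. IRF7 is itself induced in this way and drives further interferon production, and IRF1 is the factor most closely tied to interferon-gamma. MX1, IFIT3 and ISG15 are effectors that restrain viruses, and IFIH1 (MDA5) detects long double-stranded RNA. In liver this system is best known from viral hepatitis, and hepatocytes, Kupffer cells and other resident cells can all respond to interferon.

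The comparison asks which of these genes differ between fibrotic NASH and healthy liver. MX1, the count row that ISG15 shares with AGRN, and IRF7 were higher in NASH, with fold changes of 2.82, 2.13 and 1.90. STAT2 was lower, at 0.754 of the control level, and IRF1, IRF9, IFIT3 and IFIH1 did not pass the test. Thus 3 of 8 genes, with the shared ISG15 row counted as 1, rose and 1 of 8 fell by edgeR's quasi-likelihood test at a Benjamini-Hochberg adjusted p under 0.05, with 6 animals in each group. Over all 11896 symbols 27.9% were called higher and 26.0% lower by the same test. The range of CPM (counts scaled to a common library size by TMM) did not overlap between the groups for 2 rows. The row of ISG15 and AGRN was higher and STAT2 was lower. Over all symbols 18.4% were higher and 15.3% lower without overlap. The median log2 fold change of the 8 genes was 0.11 and that of all symbols 0.00. In bulk tissue, fewer cells of a type and less RNA per cell cannot be told apart.

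**Figure D1:**
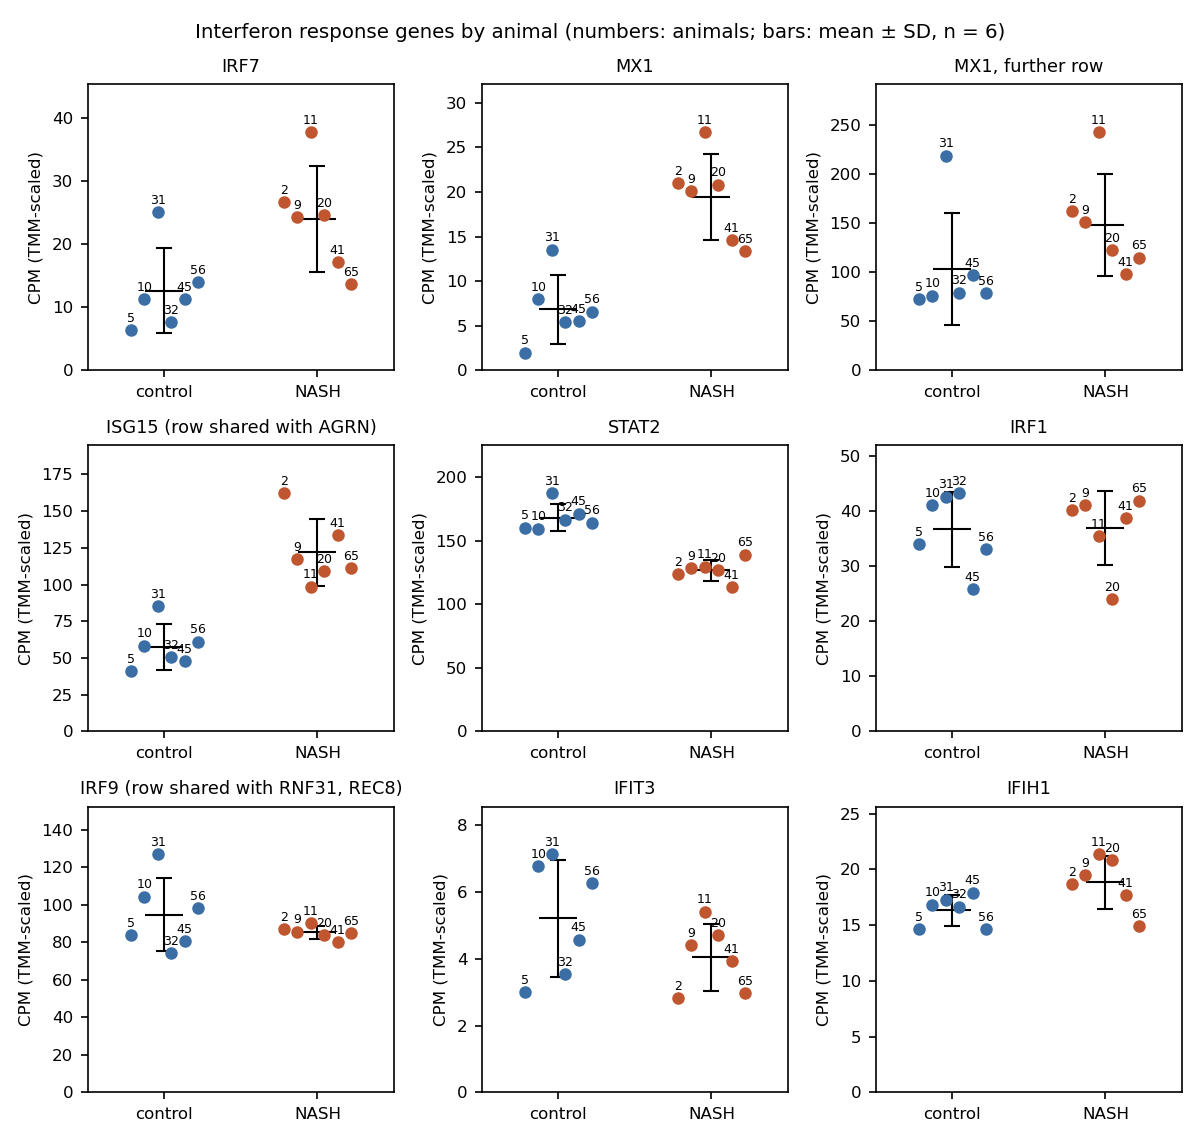
Expression of the interferon response genes in each animal, in CPM on a linear axis from 0, with controls in blue and NASH in orange, animal numbers beside the points, and bars for mean ± SD (n = 6). The row of ISG15 and AGRN (98.5 to 162 CPM in NASH, up to 85.5 in controls) and STAT2 separate the groups, and animal 31 stands above the other controls for IRF7, MX1 and MX1.1 (the panel headed further row).

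Total counts ran from 16980274 to 28636467 in controls and from 23704607 to 33091460 in NASH. The TMM factors differed by group, from 0.804 to 0.875 in controls and from 1.12 to 1.24 in NASH. Scaling by library size alone therefore moved the median log2 fold change of all symbols to 0.48, and fold changes are given relative to the bulk of the genes. Of the 7 tabulated hepatocyte markers, 6 were lower in NASH and APOA1 was not called, with summed levels of 40202 to 61233 CPM against 97267 to 118518 in controls. The sum was mostly ALB (mean 30535 CPM in NASH against 74883 in controls). The 6 lower markers ranged from 0.217 (TTR) to 0.883 (ASGR1) of the control level. Markers of stellate cells and myofibroblasts (8 of 9 higher), cholangiocytes (5 of 6) and erythroid cells (6 of 6) rose. The part of these shifts in the results for the interferon response genes was not tested.

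Among the transcription factors, STAT2, the ISGF3 subunit that carries the activation domain, had 159.7 to 187.7 CPM in controls (median 165.7) and 113.8 to 139.1 in NASH (median 127.9). Every NASH animal lay below every control animal. The means were 168 ± 10.3 and 127.0 ± 8.30 CPM (SD, n = 6 each). The log2 fold change was -0.41 (SE 0.06, edgeR adjusted p = 0.000163), but scaling by library size alone gave 0.06, while relative to the median of all symbols it was -0.41 under both. With each animal left out in turn it lay between -0.44 and -0.37 and passed the test in 12 of 12 fits.

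IRF9, the DNA-binding subunit of ISGF3, shared its count row with RNF31, REC8 and a clone-named symbol, so the reads of these genes could not be split. This row had 74.3 to 127 CPM in controls (median 91.1) and 80.1 to 90.2 in NASH (median 85.4), and the NASH range lay inside the control range. The log2 fold change was -0.15 (SE 0.11, 95% interval -0.38 to 0.08, edgeR adjusted p = 0.291), and 0.32 with library size alone. The controls spread more widely than the NASH animals, with coefficients of variation of 20.5% and 3.94%, and animal 31 was the highest control at 127 CPM.

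IRF1 had 25.8 to 43.3 CPM in controls (median 37.6) and 24.1 to 42.0 in NASH (median 39.5). The ranges were nearly the same, and animal 20 was the lowest NASH animal, at 24.1 CPM, with the others at 35.5 or more. The log2 fold change was 0.01 (SE 0.15, edgeR adjusted p = 0.967), with a 95% interval of -0.29 to 0.31. With library size alone it was 0.48 (edgeR adjusted p = 0.0125), the same as the median of all symbols under that scaling.

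IRF7 had 6.36 to 25.1 CPM in controls (median 11.3) and 13.7 to 37.8 in NASH (median 24.5). Control animal 31, at 25.1 CPM, was above the median of the NASH group, and the next control was at 14.0. NASH animals 65 and 41 were the lowest of their group, at 13.7 and 17.1 CPM. The means were 12.6 ± 6.72 and 24.1 ± 8.38 CPM (SD, n = 6 each), and the log2 fold change was 0.93 (SE 0.32, 95% interval 0.29 to 1.56, edgeR adjusted p = 0.0280). The call was close to the threshold. It was lost in 6 of 12 fits with 1 animal left out, those without controls 5, 10, 32 or 45 or NASH animals 2 or 11, where the adjusted p ran from 0.0510 to 0.0679. Without control 31 the log2 fold change was 1.25 (edgeR adjusted p = 0.00239), which was the highest of the 12 values, and the lowest was 0.75.

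Among the effectors, MX1, a dynamin-like GTPase that blocks viruses and a standard readout of type I interferon, had the highest fold change of the 8 genes. It had 2.0 to 13.5 CPM in controls (median 6.08) and 13.3 to 26.7 in NASH (median 20.5). The groups overlapped only in control animal 31, at 13.5 CPM, and NASH animal 65, at 13.3 CPM. Control animal 5 was the lowest, at 2.0 CPM, from 28 counts. The means were 6.85 ± 3.84 and 19.4 ± 4.86 CPM (SD, n = 6 each), and the log2 fold change was 1.49 (SE 0.33, edgeR adjusted p = 0.00214). It stayed between 1.31 and 1.81 with each animal left out and passed the test in 12 of 12 fits.

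The table also named a further row of the same human symbol, MX1.1, which came from a count row of its own. It was looked up after the values had been seen and is not counted among the 8 genes. MX1.1 had 72.5 to 218.8 CPM in controls (median 79.0) and 98 to 243 in NASH (median 137). The other 5 controls lay between 72.5 and 97.1 CPM, below the lowest NASH animal, and animal 31 at 218.8 CPM lay above all NASH animals but animal 11. The log2 fold change was 0.52 (SE 0.30, edgeR adjusted p = 0.168), and without control 31 it was 0.88 (edgeR adjusted p = 0.00392). Which of these rows is the guinea pig counterpart of human MX1 was not determined. Reads that mapped to several places were not counted by the authors, so a sequence shared between similar loci would be missing from both rows.

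ISG15 encodes a ubiquitin-like protein that is attached to other proteins after interferon exposure. Its count row also carried AGRN, the matrix proteoglycan agrin, and the reads of these 2 symbols could not be separated. The row had 41.2 to 85.5 CPM in controls (median 54.4) and 98.5 to 162 in NASH (median 114), with no overlap. The means were 57.4 ± 15.6 and 122 ± 22.9 CPM (SD, n = 6 each), and the log2 fold change was 1.09 (SE 0.17, edgeR adjusted p = 0.000175). It lay between 0.99 and 1.24 with each animal left out and passed the test in 12 of 12 fits. The shared row means that this difference cannot be assigned to ISG15.

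IFIT3, which binds other IFIT proteins on viral RNA, had 3.0 to 7.12 CPM in controls (median 5.41) and 2.82 to 5.41 in NASH (median 4.17). The groups overlapped over most of their ranges. The log2 fold change was -0.37 (SE 0.24, 95% interval -0.83 to 0.10, edgeR adjusted p = 0.210), and 0.10 with library size alone. The lowest count behind these values was 42.

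The sensor IFIH1 had 14.6 to 17.9 CPM in controls (median 16.7) and 14.9 to 21.4 in NASH (median 19.1). Of the NASH animals 4 lay above every control, animal 41 at 17.7 CPM lay just below the highest control, and animal 65 was near the lowest control. The log2 fold change was 0.20 (SE 0.09, edgeR adjusted p = 0.0828). It passed the threshold without animal 65, at 0.26 (edgeR adjusted p = 0.0157), and under 4 other choices of scaling or rows, among them upper-quartile factors (log2 fold change 0.28, edgeR adjusted p = 0.0287).

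**Figure D2:**
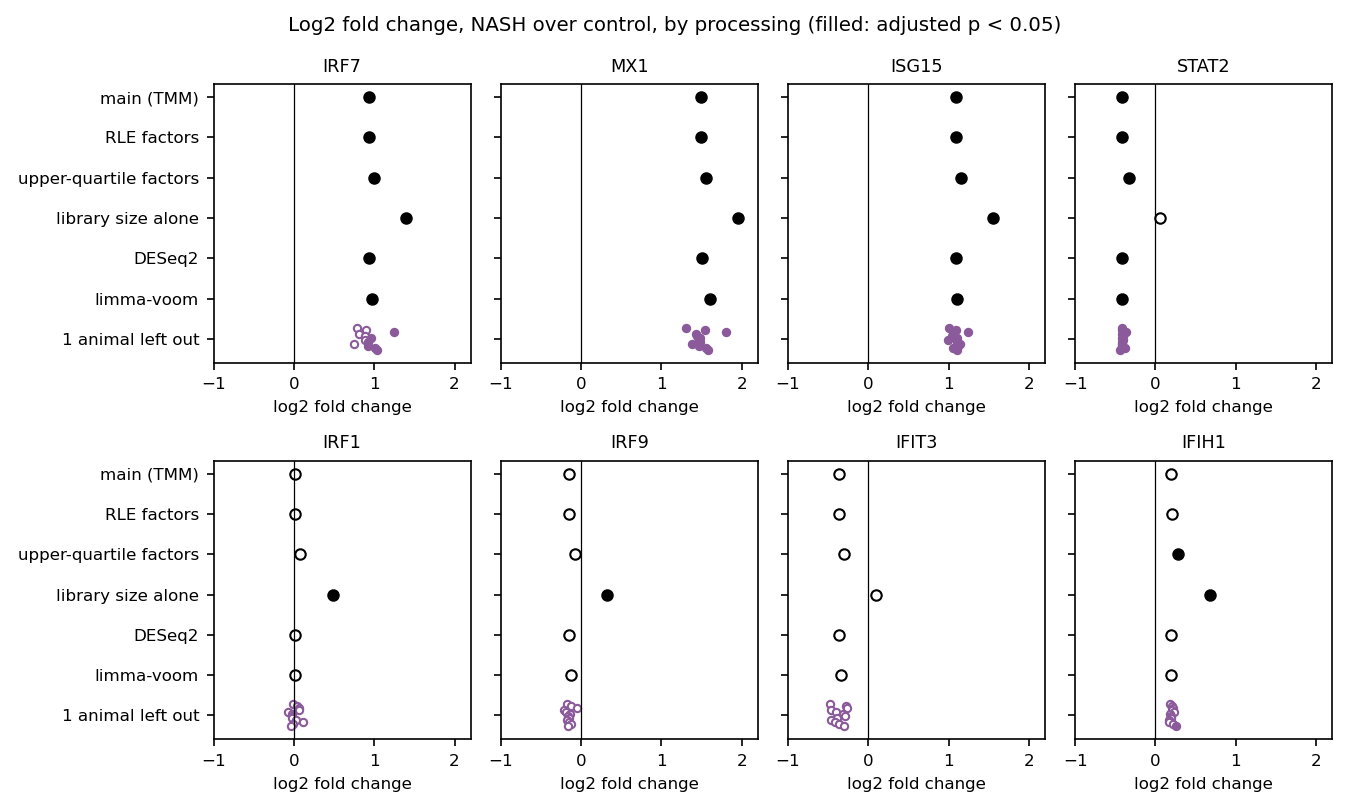
Log2 fold change (NASH over control) of each gene under 6 analyses and with each of 12 animals left out, filled where the adjusted p was under 0.05 and open otherwise. MX1 and the row of ISG15 and AGRN are filled throughout, and IRF7 is open in 6 of the 12 fits with 1 animal left out. Library size alone moves every gene to the right, with STAT2 at 0.06 and no longer called.

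The animals differed among themselves in the same genes. Among controls, animal 31 had the highest level of 6 of the 8 genes (STAT2, IRF7, IRF9, ISG15, MX1 and IFIT3), and animal 5 had the lowest of 4 (IRF7, ISG15, MX1 and IFIT3). Among NASH animals, animal 11 had the highest level of 5 (IRF7, IRF9, MX1, IFIT3 and IFIH1), and animal 65 had the lowest of 3 (IRF7, MX1 and IFIH1). Relative to the mean of its own group, animal 31 lay at 1.14 for IRF7, 1.18 for MX1 and 1.2 for MX1.1 on the log2 CPM scale, and animal 5 at -0.83, -1.53 and -0.39.

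Some marker levels differed in these animals. Control animal 5 had the lowest summed level of macrophage and Kupffer cell markers, 464 CPM, against 615 to 928 in the other controls. For CD68 of that list it was the highest control, at 196 CPM. Control animal 31 had the lowest control sums of B and plasma cell markers (10.8 CPM, others 13.0 to 31.6) and erythroid markers (58.6 CPM, others 84.1 to 175.8). It was also lowest, by small margins, for hepatocyte and for stellate cell and myofibroblast markers. NASH animals 41 and 65 had the highest summed erythroid markers, 4597 and 3328 CPM against 437 to 735 in the other NASH animals. Animal 65 also had the highest summed hepatocyte markers of the NASH group (61233 CPM) and the lowest summed markers of stellate cells and myofibroblasts (1566 CPM) and of cholangiocytes (331 CPM). The part of these markers in the spread was not tested. With controls 5 and 31 both left out, MX1 was at 1.61 (edgeR adjusted p = 0.000124) and IRF7 at 1.12 (edgeR adjusted p = 0.00630). With NASH animals 41 and 65 both left out, they were at 1.68 (edgeR adjusted p = 0.00295) and 1.16 (edgeR adjusted p = 0.0137).

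**Figure D3:**
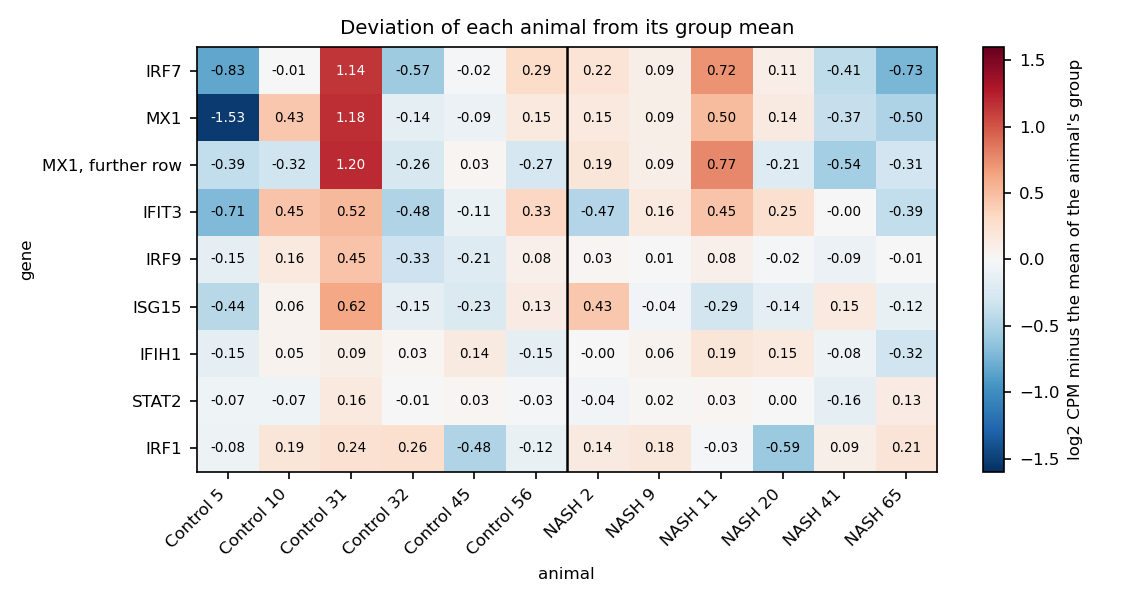
Deviation of each animal from the mean of its own group in log2 CPM, with genes in rows, animals in columns and a vertical line between controls and NASH. Control 31 is above its group mean in all rows (0.09 to 1.2) and control 5 below it in all rows (-0.07 to -1.53), while in the NASH animals STAT2 and IRF1 do not follow IRF7 (r = -0.06 and -0.30).

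To see which of the genes varied together apart from the difference between groups, group means were subtracted from log2 CPM and Pearson's r and Spearman's rho were computed over the 12 animals for all 36 pairs of the 8 genes and MX1.1. A permutation test of 100000 resamples within groups (two-sided) and adjustment over the 36 pairs were used. The closest pair was IRF7 and MX1, with r = 0.89 (permutation p = 0.00050, adjusted 0.018) and rho = 0.92 (permutation p = 7e-05, adjusted 0.0025). Their r was 0.89 within controls and 0.99 within NASH, and 0.86 without animals 5 and 31, those farthest from the median of IRF7. MX1 and IFIT3 had r = 0.79 (permutation p = 0.0012, adjusted 0.018) and rho = 0.85 (permutation p = 0.0028, adjusted 0.050), and r was 0.68 without animals 5 and 31. IRF7 and MX1.1 had r = 0.85 (permutation p = 0.0015, adjusted 0.018) and rho = 0.75 (permutation p = 0.0082, adjusted 0.059), and r was 0.74 without animals 5 and 31. No other pair had an adjusted p under 0.05 for r. IFIT3 and IRF7 had r = 0.77 (permutation p = 0.0062, adjusted 0.056), whereas between groups IFIT3 was at a log2 fold change of -0.37, which was not called, and IRF7 at 0.93.

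The row of ISG15 and AGRN had r = 0.94 with IRF7 within controls and -0.17 within NASH, a difference that was not tested. Over both groups its r with IRF7 was 0.57, and 0.01 without animals 5 and 31. The last value pools the remaining controls with all NASH animals, and r within the remaining controls was not computed. IRF1 did not vary with IRF7 (r = -0.04) or MX1 (r = 0.14). STAT2 had r = 0.40 with IRF7, and -0.10 without control 31 and NASH animal 41.

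**Figure D4:**
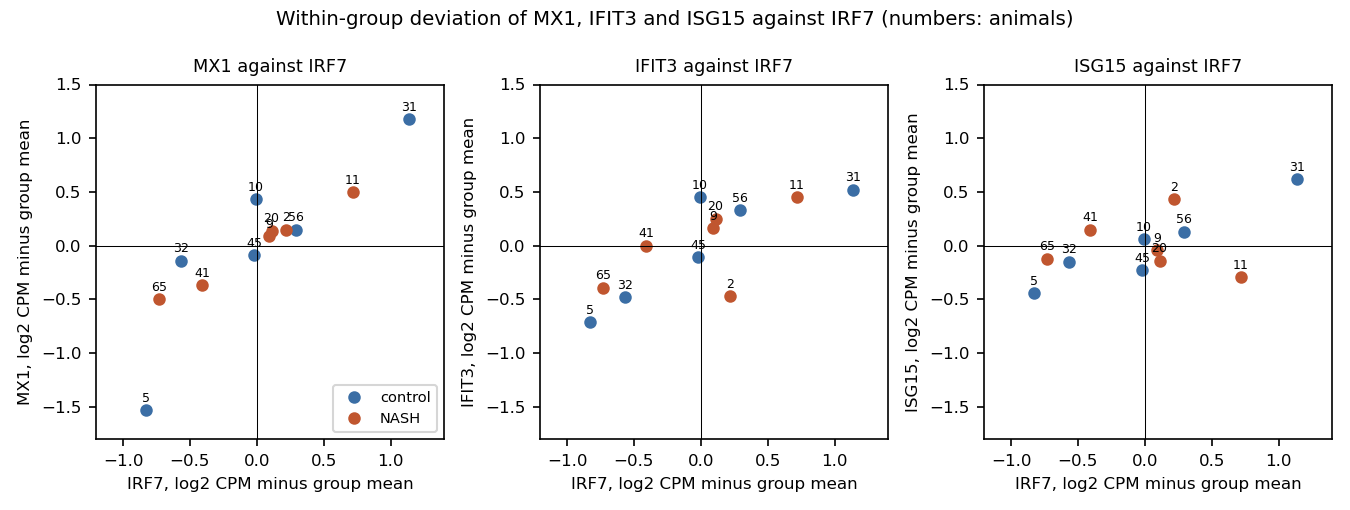
Deviation from the group mean in log2 CPM of MX1, IFIT3 and ISG15 (vertical axes) against IRF7 (horizontal axes), 1 point per animal, controls in blue and NASH in orange. MX1 follows IRF7 in both groups (r = 0.89 within controls, 0.99 within NASH), while the row of ISG15 and AGRN has r = 0.94 within controls and -0.17 within NASH, a difference that was not tested, and 0.01 over both groups without animals 5 and 31.

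The genes nearest to each of the 8 by the same r are given as a description over 12 animals that share library depth and scaling, and the highest of 11896 symbols' correlations is large by selection. For IRF7 they were FNDC11 (r = 0.90) and PML (r = 0.89), the organiser of nuclear bodies, with MX1 in place 3 among all symbols. For MX1 they were CD84 and MARK1 (both r = 0.93), and IRF7 was in place 12. IFIH1 was closest to TMEM9 (0.94) and PARP14 (0.89), an ADP-ribosyltransferase of the interferon-induced PARP group. STAT2 was closest to FNDC10 (0.94) and TTYH2 (0.85), IRF1 to MZF1 and WWP2 (both 0.92), and IFIT3 to UTRN (0.89) and WDR19 (0.88). The shared row of IRF9 was closest to WDR53 (0.95) and SLC16A5 (0.91), and that of ISG15 to CXXC1 and PGM1 (both 0.95).

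The other genes of the pathway were taken from 9 lists of 134 genes, of which 83 were rows of the table. Of these 83 genes 40 were higher and 5 lower in NASH (48.2% and 6.02%, against 27.9% and 26.0% of all symbols), and their median log2 fold change was 0.32. None of the 10 ligands, the interferons themselves, was in the table under its own symbol. A row named IFNB1.1, looked up after the values had been seen, had 0.918 to 2.96 CPM in controls and 0.409 to 2.65 in NASH (log2 fold change -0.76, SE 0.41, edgeR adjusted p = 0.140).

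All 5 receptor genes in the table were higher in NASH by edgeR. IFNGR2, a chain of the interferon-gamma receptor, had 14.0 to 28.5 CPM in controls and 41.4 to 66.4 in NASH (log2 fold change 1.41, SE 0.17, edgeR adjusted p = 1.52e-05). Its partner IFNGR1 was at 0.50, the type I receptor chain IFNAR1 at 0.31, the interferon-lambda receptor IFNLR1 at 0.53 and IL10RB, which interferon-lambda shares with other cytokines, at 0.66. IL10RB was the only receptor of the 5 whose groups overlapped. Its call was lost without controls 5 and 31 (edgeR adjusted p = 0.0688) and without NASH animals 41 and 65 (edgeR adjusted p = 0.0856).

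Of the 7 further kinases and transcription factors 3 rose and 1 fell. The receptor-bound kinase JAK1 had 51.9 to 71.9 CPM in controls and 84.2 to 99.8 in NASH (log2 fold change 0.53, SE 0.08, edgeR adjusted p = 0.000148). It passed the test in 12 of 12 fits with 1 animal left out, between 0.47 and 0.56. IRF2, which competes with IRF1 for its binding sites, was lower (log2 fold change -0.57, SE 0.08, edgeR adjusted p = 6.68e-05), and at -0.10 with library size alone it was not called. TYK2, on a count row shared with RAVER1 and a clone-named symbol, was at 0.13 (edgeR adjusted p = 0.321). The lymphoid factor IRF4 was at 0.63 (edgeR adjusted p = 0.107), from CPM of 1.28 or less in every animal. It was called by limma-voom (0.73, adjusted p = 0.0476) and by edgeR without control 56 (0.96, adjusted p = 0.00626).

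In nucleic acid sensing 2 of 8 genes rose and 1 fell. The kinase IKBKE, which phosphorylates IRF3 and IRF7, had 0.715 to 3.90 CPM in controls and 12.4 to 15.1 in NASH (log2 fold change 2.17, SE 0.25, edgeR adjusted p = 1.41e-05). STING1, the adaptor of cytosolic DNA sensing, had 0.808 to 2.29 CPM in controls and 3.26 to 5.17 in NASH (log2 fold change 1.54, SE 0.21, edgeR adjusted p = 5.41e-05). DDX58 (RIG-I), an RNA sensor of the same helicase family as IFIH1, had a log2 fold change of -0.29 (edgeR adjusted p = 0.0453), a call lost in 9 of 12 fits with 1 animal left out and turned to 0.18 by library size alone. TRIM25, which activates RIG-I, was at -0.18 (edgeR adjusted p = 0.299).

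Of the 24 antiviral effectors 14 rose by edgeR, and the median log2 fold change was 0.60. By edgeR, DESeq2 and limma-voom 0 fell, and 1 was lower at an unadjusted p under 0.05. Among rows with a numbered symbol, looked up after the values had been seen and not counted in the list, the 1 row of IFITM1.1, IFITM2.1 and IFITM3.1 was lower (log2 fold change -0.49, edgeR adjusted p = 0.0373) and the row of TRIM5.1 and a clone-named symbol was higher (log2 fold change 1.37, edgeR adjusted p = 4.72e-05). OAS2, a sensor of double-stranded RNA that activates RNase L, had 0.429 to 7.45 CPM in controls and 10.1 to 18.2 in NASH (log2 fold change 2.13, SE 0.48, edgeR adjusted p = 0.00244). IFIT5, a relative of IFIT3, had 7.0 to 14.7 CPM in controls and 19.4 to 57.1 in NASH (log2 fold change 1.71, SE 0.26, edgeR adjusted p = 0.000125). The lowest values of the list were IFITM5 at -0.36 (edgeR adjusted p = 0.178) and SHFL, a blocker of ribosomal frameshifting, at -0.33 (edgeR adjusted p = 0.0786). SHFL was called lower without NASH animal 2 (-0.40), without NASH animal 65 (-0.41, edgeR adjusted p = 0.0379) and without NASH animals 41 and 65 (-0.46, edgeR adjusted p = 0.0370), and was at 0.14 with library size alone. IFITM1, IFITM2 and IFITM3 shared 1 count row, so the list rested on 22 count rows.

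Of the 15 other interferon-induced genes 7 rose and 2 fell. IFI30, a lysosomal thiol reductase used in antigen processing, had 2.79 to 15.6 CPM in controls and 25.2 to 29.6 in NASH (log2 fold change 1.45, SE 0.27, edgeR adjusted p = 0.000619). The helicase DDX60 was at 0.89 (edgeR adjusted p = 0.0251), a call that 3 of 12 fits with 1 animal left out did not keep. CNP, a cyclic nucleotide phosphodiesterase, was lower at -0.64 (edgeR adjusted p = 0.000209), and was not called with library size alone, at -0.17. NMI, which binds STAT proteins, was lower at -0.27 (edgeR adjusted p = 0.0125), and was higher with library size alone, at 0.21. Its call was also lost with upper-quartile factors (edgeR adjusted p = 0.0594), over every row with a count (edgeR adjusted p = 0.104) and without controls 5 and 31 (edgeR adjusted p = 0.0639).

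Of the 3 ISG15 conjugation genes, 0 passed the edgeR test, 1 had an unadjusted p under 0.05, and 1 was called by DESeq2 and 0 by limma-voom. The activating enzyme UBA7 was at -0.17 (edgeR adjusted p = 0.0616), and was called lower by DESeq2 (adjusted p = 0.0400), by edgeR with each count row once (-0.18, adjusted p = 0.0498) and in 3 of 12 edgeR fits with 1 animal left out, but higher with library size alone (0.30, edgeR adjusted p = 0.00371). The conjugating enzyme UBE2L6 was at 0.45 (edgeR adjusted p = 0.151), and at 0.71 (edgeR adjusted p = 0.0107) without control 31. The ligase HERC5 was at -0.03 (edgeR adjusted p = 0.913).

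Of the 17 genes known for induction by interferon-gamma 8 rose and 1 fell. CD274 (PD-L1), a checkpoint ligand, had 2.63 to 3.59 CPM in controls and 2.18 to 10.9 in NASH (log2 fold change 1.41, SE 0.30, edgeR adjusted p = 0.00147), and animal 20 was the single NASH animal below the controls. FGL2, a fibrinogen-like immune regulator, was at 1.38 (edgeR adjusted p = 0.000428). The chemokine CXCL9 was lower at -0.77 (edgeR adjusted p = 0.0245). Its call was lost without control 32 (-0.58), control 45 (-0.64), NASH animal 20 (-0.69) or NASH animals 41 and 65 (-0.77), over every row with a count (-0.69) and with library size alone (-0.30). CXCL10 was at -0.42 (edgeR adjusted p = 0.107), and was called lower without control 5 (-0.53, edgeR adjusted p = 0.0299), and was at 0.05 with library size alone. Both attract T and natural killer cells. Of the 4 tabulated natural killer markers, 3 were lower in NASH, with summed levels of 16.1 to 28.5 CPM against 22.2 to 42.6 in controls. Of the 7 T cell markers CD3E was lower (mean 33.0 CPM against 69.0 in controls), CD8A was higher (3.01 against 1.22 CPM) and the other 5 were not called, so the summed level (37.1 to 65.4 CPM against 60.8 to 116) mostly followed CD3E. The part of these cells in the chemokine values was not tested.

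Of the 4 negative regulators, PTPN6 (SHP-1), a phosphatase of JAK kinases, was higher at 0.41 (edgeR adjusted p = 0.00341), on a count row shared with C12orf57. SOCS3 at 0.26, PIAS1 at -0.10 and PTPN2 at -0.19 did not pass the edgeR test, with adjusted p-values of 0.318, 0.262 and 0.166.

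**Figure D5:**
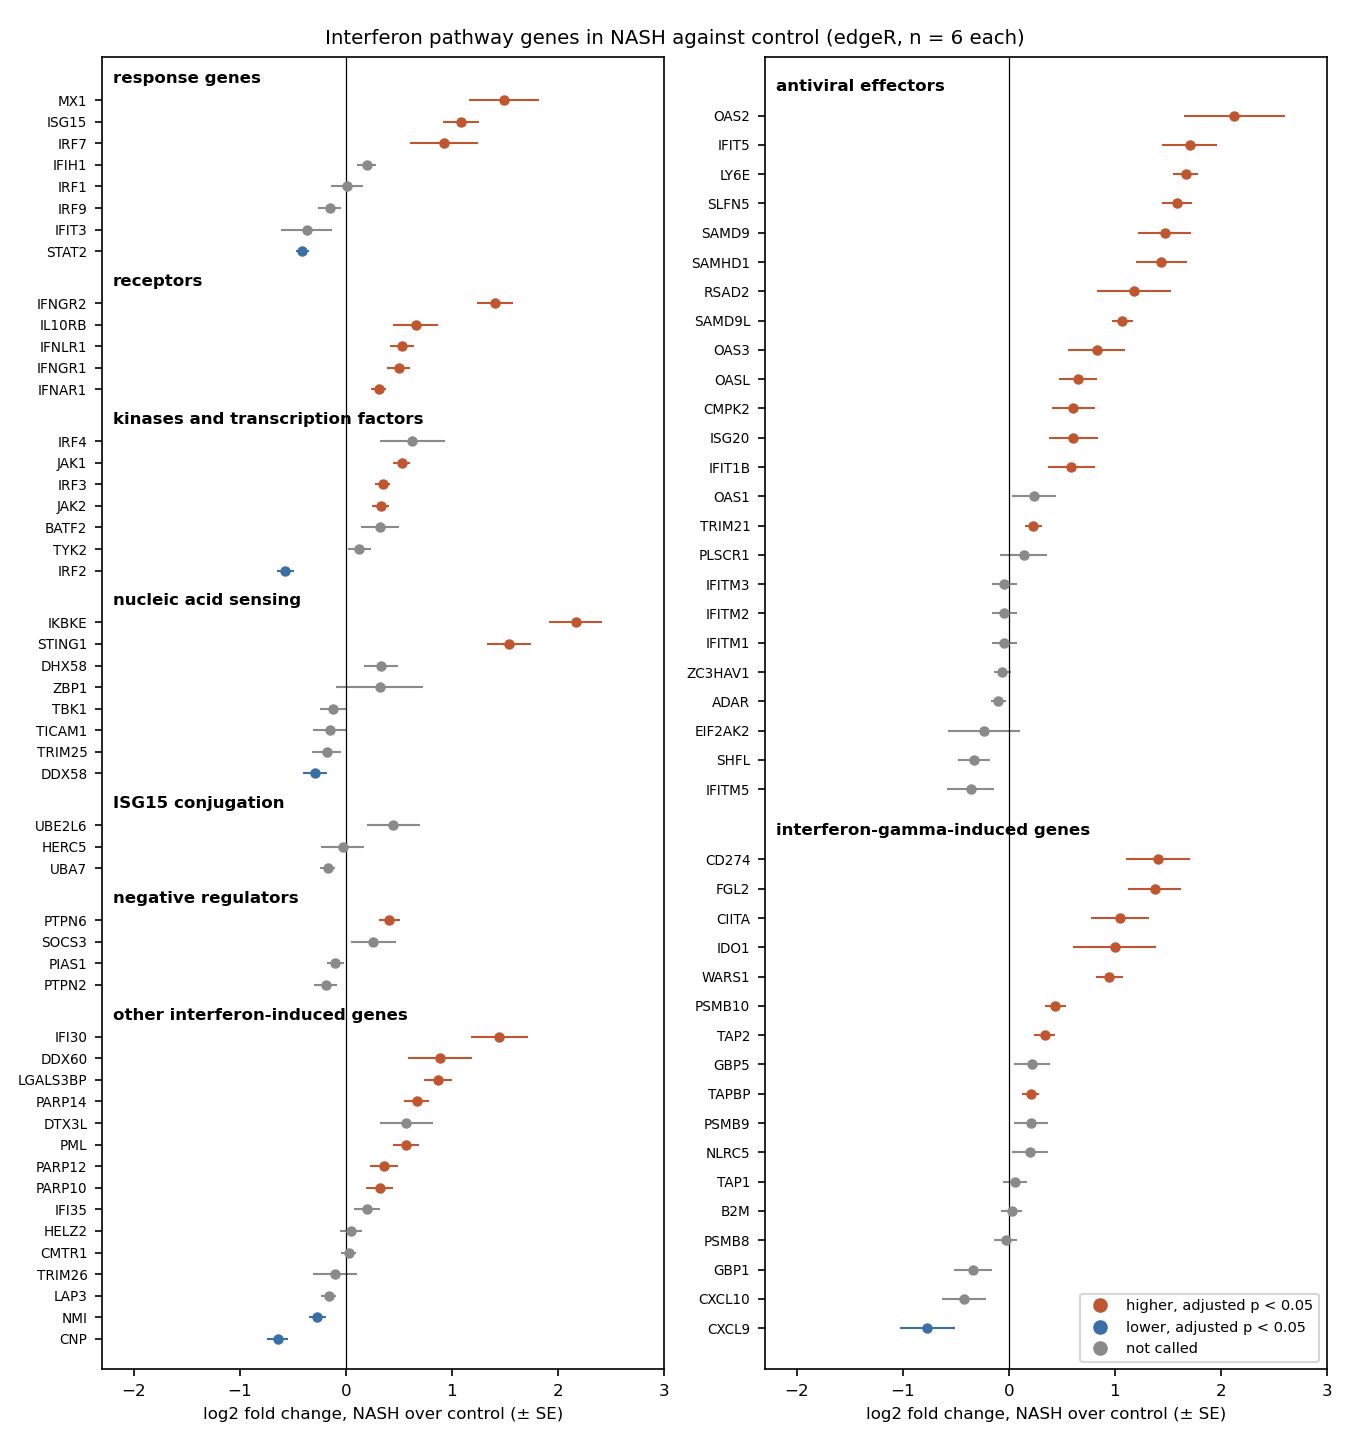
Log2 fold change (NASH over control) ± SE of the 8 interferon response genes and of 83 other genes of the pathway, grouped by role, with orange for called higher, blue for called lower and grey for not called. All 5 receptors and 14 of 24 antiviral effectors are orange. The 5 blue pathway genes (IRF2, DDX58, NMI, CNP and CXCL9) are all uncalled or of the opposite sign with library size alone. That scaling also moves the median log2 fold change of all symbols to 0.48.

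The pattern of control animal 31 extended to the pathway. It was the highest control for 43 of the 83 pathway genes (51.8%), against 19.6% of all symbols. For RSAD2 (viperin), animal 31 had 99.4 CPM and the next control 37.6. For OAS1 it had 51.1 CPM against 29.3, and for OASL 104 against 68.7. Other margins were small, as for PARP10 (18.5 against 18.4 CPM) and NMI (59.3 against 58.7 CPM). IFITM1, IFITM2 and IFITM3, on 1 count row, were counted separately among the 43. Control animal 5 was the lowest control for 39 of the 83 genes (47.0%, against 26.3% of all symbols), and NASH animal 65 the lowest of its group for 31 (37.3%, against 19.0%). The pathway genes share regulators and are not independent of each other, so these shares describe the animals. With controls 5 and 31 left out, 38 pathway genes were higher and 3 lower, against 25.9% and 24.2% of all symbols.

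Cells that make or respond to much interferon were represented by marker lists. Of the 4 tabulated plasmacytoid dendritic cell markers, 2 were higher, CLEC4C at a log2 fold change of 1.41 and LILRA4 at 1.1, whose count row also carried 5 other LILRA and LILRB symbols so that the rise cannot be assigned to it, and GZMB, which other cytotoxic cells also express, was lower at -0.75. The summed level of the list was 189 to 392 CPM in controls and 220.4 to 281 in NASH. Of the 10 macrophage and Kupffer cell markers 2 were higher, MPEG1 and CD68, and 1 was lower, MARCO, with sums of 464 to 928 CPM in controls and 702 to 954 in NASH. Of the 5 B and plasma cell markers 4 were higher (10.8 to 31.6 CPM in controls, 31.9 to 40.9 in NASH), as were 3 of 4 neutrophil markers (15.6 to 39.7 and 34.9 to 69.3 CPM). Of the 8 endothelial markers 3 were higher and 2 lower (558 to 757 and 614 to 885 CPM). No marker in the table was at 0 in all animals of a group. Their part in the interferon response was not tested.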

How the data were processed

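Poly(A) RNA of 12 livers was sequenced as stranded single reads. The authors trimmed reads with Trimmomatic 0.38.0, mapped them with HISAT2 2.1.0 to Cavpor3.0, removed multimapped reads and assembled and quantified with StringTie 1.3.6, and deposited raw counts for 39061 loci. The authors also deposited log2 values, made with the rlog transformation of DESeq2 for rows with a human orthologue symbol and at least 200 counts. The count table has no symbols, so rlog was run again on the counts and each symbol was assigned to the row with the same values (11896 symbols on 11031 rows, largest difference 8e-07), and 1515 symbols share a row with another. Guinea pig coordinates and sequences were not used here.

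Counts were tested with edgeR 4.0.16 in R 4.3.3 (TMM factors, library sizes summed over all 39061 loci, robust glmQLFit and glmQLFTest) over all 11896 symbols, with a Benjamini-Hochberg adjusted p under 0.05 as the threshold. SE is the absolute log2 fold change over the square root of F, and 95% intervals are 1.96 SE to each side. Log2 CPM used a prior count of 2. The fits were tested on simulated data with few and large changes, unlike these data, which checks the code and not the calls reported here. Alternatives were RLE and upper-quartile factors, library size alone, DESeq2 1.42.0, limma-voom 3.58.1, each count row once, all 31748 rows with a count, filterByExpr (20121 rows) and each animal left out. The fits without 2 animals were chosen after seeing the data. Animal numbers do not overlap between groups.

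The 9 genes and the lists were chosen with earlier results of these data known. Named pathway genes are the 2 highest and 2 lowest log2 fold changes of each list, or all genes where 6 or fewer were in the table, and others named were chosen after their values were seen. For each of the 8 genes the 2 nearest by r were named. Each animal is a separate biological sample. The largest level that a count of 0 allows, at 3 counts, is 0.214 CPM. Of the pathway genes, 1 was left out and is not reported here.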

Additional observations from a re-analysis of the deposited data

Results flagged for a closer look

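In each group of 6 animals the highest or lowest value was examined for a gap to the nearest other animal above Dixon's 95% critical value, in 82 groups of named genes, and 6 were found. Chance gives about 1 in 20. Control 31 stood above the other controls for MX1.1 (218.8 CPM, others 72.5 to 97.1). NASH animal 20 stood below its group for IRF1 (24.1 CPM, others 35.5 to 42.0) and CD274 (2.18 CPM, others 8.33 to 10.9). NASH animal 11 stood above its group for HERC5 (37.6 CPM, others 16.3 to 24.0), control 56 above the controls for IRF4 (1.28 CPM, others 0.286 to 0.615) and control 5 below them for IKBKE (0.715 CPM, others 3.13 to 3.90).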

How the results depend on the processing

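Of the 8 interferon response genes, 2 to 4 were called higher and 1 lower with each animal left out, and 34 to 41 of the 83 pathway genes were called higher and 3 to 7 lower, against 26.3% to 27.7% and 24.3% to 25.8% of all symbols. With library size alone 6 of the 8 were higher and 0 lower, and 69 pathway genes were higher and 0 lower, where 63.9% of all symbols were higher and 7.66% lower and their median was 0.48. Pathway genes called lower numbered 3 with upper-quartile factors, 2 over every row with a count and 3 without controls 5 and 31, where 21.6%, 18.8% and 24.2% of all symbols were lower. Signs changed with library size alone for STAT2 (0.06), IRF9 (0.32), IFIT3 (0.10), DDX58 (0.18), TRIM25 (0.30), IFITM5 (0.11), SHFL (0.14), NMI (0.21), UBA7 (0.30), HERC5 (0.44), CXCL10 (0.05), PTPN2 (0.28) and PIAS1 (0.37). HERC5, near 0, was also at 0.04 with upper-quartile factors, 0.05 over every row with a count, 0.02 with filterByExpr and 0.13 without NASH animals 41 and 65, and between -0.22 and 0.06 with 1 animal left out. IRF1 was at -0.07 without NASH animals 41 and 65 and between -0.07 and 0.11 with 1 animal left out. Each library held at least 16980274 counts. The lowest count in an animal was 42 for IFIT3 and 28 for MX1. Some named pathway genes had fewer in a control, such as OAS2 (6), IKBKE (10), STING1 (12) and IRF4 (4). Whether low counts limited these results was not tested. No paired analysis was possible because the groups share no animal number.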
